A study of Homo sapiens with 8 samples.

Results

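The genes described here are 38 of the 58870 rows of a gene expression table of human skin fibroblasts, picked by gene name. They take glucose into the cell and through glycolysis to pyruvate and lactate, run the pentose phosphate pathway, or sense and answer low oxygen. By role they are 4 genes of glucose entry, 9 of upper glycolysis, 6 of lower glycolysis, 5 of pyruvate and lactate handling, 3 of the pentose phosphate pathway, 3 of oxygen sensing and 8 other targets of hypoxia. Their levels were compared across WT and SNORA13 knockout (KO) clones without and with (Z)-4-hydroxytamoxifen (4-OHT).

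Glycolysis splits glucose into pyruvate in the cytosol and yields ATP without oxygen. Pyruvate is then either reduced to lactate and exported or passed to the mitochondria, and the pentose phosphate pathway branches off after the first step to make NADPH and ribose. When oxygen falls, prolyl hydroxylases of the EGLN family no longer mark the alpha subunits of the hypoxia-inducible factors (HIF) for destruction, and HIF then raises the transcription of many of the genes named here. In fibroblasts with an active RAS oncogene, glycolysis is a much studied branch of metabolism.

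All cells were BJ skin fibroblasts in the derivative labelled BJ-HRAS. Of the 4 clones, 15 and 54 were WT and 66 and 69 were KO for SNORA13, a small nucleolar RNA, and each clone gave 1 library without 4-OHT and 1 after 7 days with 100 nM 4-OHT, so that there were 4 groups of 2 libraries. In lines of this name 4-OHT usually serves to activate an HRAS protein fused to an oestrogen receptor domain, which the labels do not spell out. Each group rests on 2 clones, so a difference between KO and WT cannot be told apart from other differences between those clones.

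The 8 libraries held 22.1 to 24.9 M reads. SNORA13 had 4 to 7 reads in each WT library and 0 in each of the 4 KO libraries. All 8 fibroblast markers examined exceeded 1 RPKM, but with 4-OHT 4 of them were called lower and 3 higher in WT, and 5 lower and 3 higher in KO. The collagen gene COL1A2 went from 1658 and 1752 to 272 and 246 RPKM in WT clones 15 and 54, whereas VIM went from 812 and 776 to 1223 and 1299.7. The 4 endothelial markers summed to between 0.15 and 0.361 RPKM. The 4 immune markers summed to 2.81 and 3.89 RPKM in untreated and 1.49 and 1.56 in treated WT clones, and to 1.85 to 2.26 and 1.19 to 1.22 in KO, with PTPRC at up to 2.71 and LYZ at up to 1.81 RPKM. KRT5, KRT14 and CD68 were listed at 0 throughout, but so were ALDOA and LDHB, which nearly every cell uses, so a listed 0 is not read as low expression. RNA of the signal recognition particle took 9.18% to 10.13% of the reads without 4-OHT and 9.72%, 15.37%, 16.1% and 14.77% with it in clones 15, 54, 66 and 69. The summed epithelial markers, nearly all of it KRT18, lay at 488 to 799 RPKM without 4-OHT and 265 to 294 RPKM with it. The part of these shifts in the responses below was not tested. As these are bulk RNA samples, fewer cells of a kind and less RNA per cell cannot be told apart.

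With 4-OHT, most of the tested members of glucose uptake, glycolysis and lactate export were called higher in WT and in KO clones. The members were chosen with earlier results of these data known. Other glycolysis genes were called in both directions, as given below. A gene was called when its adjusted p from limma, Benjamini-Hochberg over 16527 genes tested, was under 0.05. In the WT clones 20 of the 34 members tested were called higher and 4 lower. Over all genes tested 48.9% were called in that contrast, 25.3% higher and 23.6% lower. In the KO clones 21 members were called higher and 4 lower, where 55.7% of all genes were called, 28.8% higher and 26.9% lower. The median log2 difference of the members was 0.43 in WT and 0.44 in KO, beside 0.00 over all genes tested in both. Of the 34 members tested, 19 were called higher in both genotypes, and BNIP3L and KDM3A were called lower in both. The share of all genes tested that were called the same way in both genotypes was not counted. Levels are given as RPKM, reads scaled to a kilobase of the listed transcript and to 1 M reads of the library, after scaling between libraries, and log2 differences are of RPKM + 0.1.

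**Figure D1:**
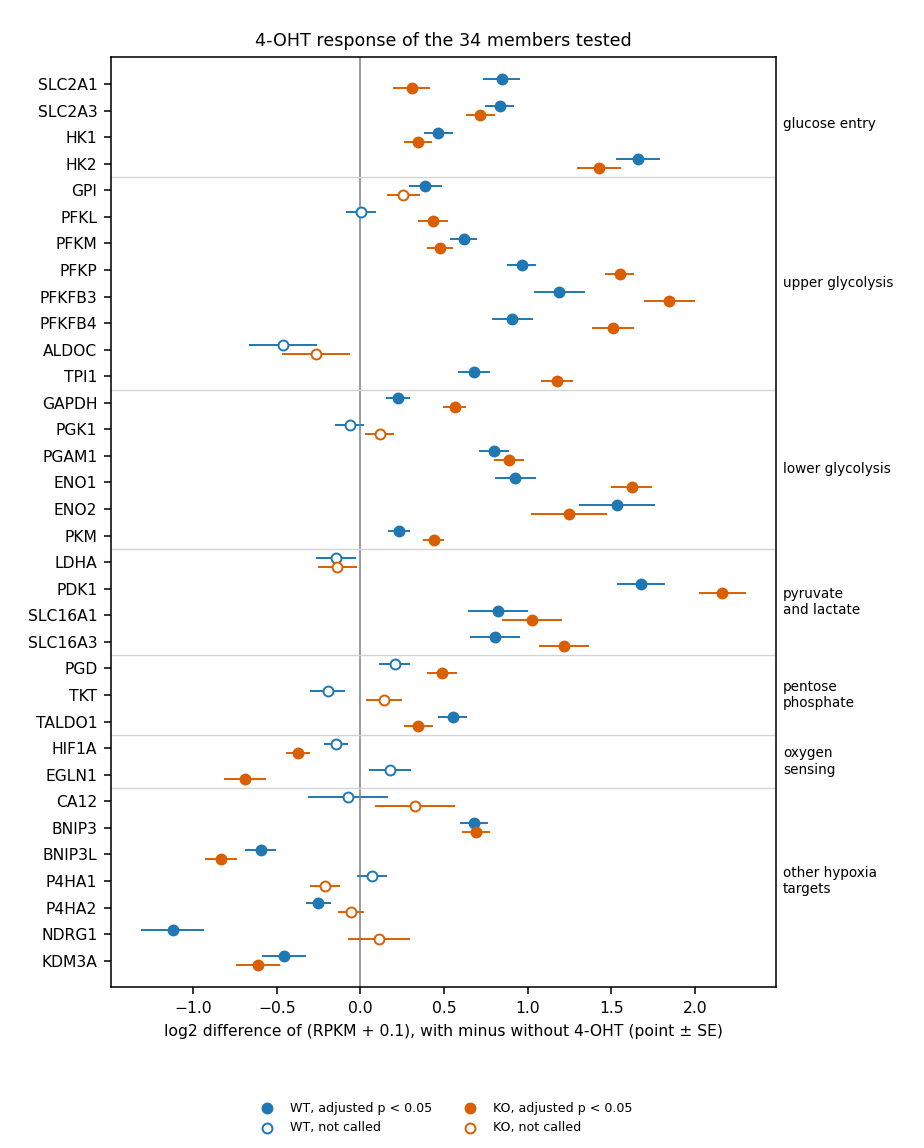
The log2 difference of RPKM + 0.1 between libraries with and without 4-OHT (x axis) is plotted for each of the 34 members tested (y axis, grouped by role). Points are limma estimates in WT (blue) and KO (orange) with bars of 1 SE, filled where the adjusted p was under 0.05. The 4 glucose entry genes lie right of 0 in both genotypes, while BNIP3L and KDM3A lie left of it.

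All 4 members of glucose entry were called higher in both genotypes. HK2, the inducible hexokinase that traps glucose as glucose 6-phosphate, measured 5.999 and 7.25 RPKM in untreated WT clones 15 and 54 and 22.5 and 19.7 with 4-OHT. In KO clones 66 and 69 it went from 6.05 and 6.59 to 18.7 and 15.7 RPKM. All treated libraries thus lay above all untreated ones. The rise was 3.16-fold in WT (log2 1.66 ± 0.13 SE, limma adjusted p = 7.66e-05) and 2.69-fold in KO (log2 1.43 ± 0.13, adjusted p = 9.92e-05). HK1, the hexokinase found in most tissues, rose less, with a log2 difference of 0.47 in WT (adjusted p = 0.00346) and 0.35 in KO (adjusted p = 0.011), from 24.3 to 35.2 RPKM over the untreated libraries to 29.2 to 47.3 over the treated ones.

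The glucose transporter SLC2A1 (GLUT1) measured 60.1 and 47.9 RPKM in untreated WT clones 15 and 54, and 100.2 and 92.9 with 4-OHT. Its KO levels were 49.95 and 49.6 RPKM without and 63.9 and 59.5 with 4-OHT. Both genotypes moved upward without overlap, WT 1.80-fold (log2 0.85 ± 0.11, adjusted p = 0.000701) and KO 1.24-fold (log2 0.31 ± 0.11, adjusted p = 0.0473). SLC2A3 (GLUT3), a transporter of high affinity for glucose, went from 13.0 in both WT clones to 21.4 and 25.1 RPKM, and in KO from 13.7 and 14.2 to 22.9 and 23.0. Its log2 rises were 0.83 ± 0.09 in WT (adjusted p = 0.000269) and 0.72 ± 0.09 in KO (adjusted p = 0.000389). The SLC2A1 call in KO and the HK1 call in KO were the 2 in this group that were lost in fits with 1 library left out. Without any 1 of the 4 KO libraries the adjusted p of SLC2A1 lay between 0.0849 (without treated clone 69) and 0.193 (without treated clone 66), with 0.138 and 0.151 without untreated clones 66 and 69. With scaling to the library size only, the SLC2A1 value in KO had an adjusted p of 0.106. For HK1 the adjusted p in KO was 0.0632 without untreated clone 66 and 0.0719 without treated clone 66.

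The HK2 promoter is printed because this gene had 1 of the 2 largest WT rises among members also called higher in KO. HK2 lies at chr2:74833981-74893359 on the plus strand of GRCh38. The window, chr2:74834920-74835219 on the plus strand of GRCh38.p14, runs from 250 bases before to 50 after a RefSeq transcript start, and is the one of the gene's windows with most matches. Capitals mark ACGTG or GCGTG on either strand, the core letters of the hypoxia response element bound by HIF.
HK2: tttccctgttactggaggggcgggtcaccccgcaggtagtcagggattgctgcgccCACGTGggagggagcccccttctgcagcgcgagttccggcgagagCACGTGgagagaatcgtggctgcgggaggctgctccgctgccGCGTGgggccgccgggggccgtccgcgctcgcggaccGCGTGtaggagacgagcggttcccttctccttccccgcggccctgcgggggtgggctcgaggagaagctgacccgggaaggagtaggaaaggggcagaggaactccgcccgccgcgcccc
It holds 6 matches, 4 to ACGTG and 2 to GCGTG, where CACGTG counts on both strands. A match was found in 48.45% of all 35116 RefSeq promoter windows given. RefSeq windows were found for 34 of the 38 members, and 40 of their 62 windows (64.52%) held one. Among windows of the members called higher in both genotypes the share was 55.0% (22 of 40), among those of members called lower in both it was 2 of 2, both of them windows of KDM3A, and among those of the remaining members it was 80.0% (16 of 20). Several windows of a gene overlap, and a match is a description of letters, not of binding.

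In upper glycolysis the 3 phosphofructokinases and the 2 bifunctional PFKFB enzymes, which make and break fructose 2,6-bisphosphate, the strongest activator of phosphofructokinase, moved unequally. PFKFB3, whose kinase activity far exceeds its phosphatase activity, measured 6.64 and 7.31 RPKM in untreated WT clones 15 and 54 and 15.8 and 16.3 with 4-OHT. KO clones 66 and 69 went from 5.55 and 6.28 to 25.4 and 18.2 RPKM. The treated libraries were all above the untreated ones, with log2 rises of 1.19 ± 0.15 in WT (adjusted p = 0.00066) and 1.85 ± 0.15 in KO (adjusted p = 6.24e-05). PFKFB4 had lower levels and rose too, from 2.62 and 2.79 to 5.01 and 5.31 RPKM in WT and from 2.47 and 2.09 to 6.34 and 6.97 in KO (log2 0.91 and 1.51, adjusted p = 0.000835 and 5.81e-05).

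PFKP, the platelet-type phosphofructokinase, measured 32.3 and 34.1 RPKM in untreated WT clones and 60.4 and 69.5 with 4-OHT. The KO clones started lower, at 29.6 and 28.2 RPKM, and ended higher, at 87.2 and 82.8. Its log2 rise was 0.96 ± 0.09 in WT (adjusted p = 0.000125) and 1.55 ± 0.09 in KO (adjusted p = 1.35e-05). PFKM, the muscle-type enzyme, rose by 0.62 in WT and 0.48 in KO (adjusted p = 0.000651 and 0.00176). PFKL, the liver-type enzyme, stood at 48.7 and 54.7 RPKM in untreated and 49.1 and 54.5 in treated WT clones, a log2 difference of 0.00 ± 0.09. In KO it went from 47.7 and 45.7 to 65.6 and 60.7 RPKM and was called (log2 0.43 ± 0.09, adjusted p = 0.00485).

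Triose phosphate isomerase, TPI1, which interconverts the 2 triose phosphates, went from 289 and 335 to 467 and 530 RPKM in WT and from 240.0 and 232 to 528 and 537 in KO. The untreated and treated libraries did not overlap in either genotype, and the log2 rises were 0.68 ± 0.10 (adjusted p = 0.000967) and 1.17 ± 0.10 (adjusted p = 5.61e-05). GPI, which turns glucose 6-phosphate into fructose 6-phosphate, was called in WT at a log2 difference of 0.39 (adjusted p = 0.0129) and stood at 0.26 in KO (adjusted p = 0.0554). The WT call of GPI was lost without untreated clone 54 (adjusted p = 0.0536) or treated clone 15 (0.0684). ALDOC, a brain-type aldolase, was not called, with log2 differences of -0.46 in WT (adjusted p = 0.0986) and -0.27 in KO (0.298), although its groups did not overlap in either. With the clone as a block the WT value of ALDOC had an adjusted p of 0.0352.

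ALDOA, the main aldolase of most tissues, could not be described. The table lists it at 0 in all 8 libraries, and 90.3% of its listed transcript is shared on the same strand with the row AC093512.2, which measured 0.424 to 1.00 RPKM. A count of 0 allows up to 3 reads, which is 0.0777 to 0.0878 RPKM here and covers counting error only. LDHB, the heart-type lactate dehydrogenase subunit, was also listed at 0 throughout. Of its listed transcript, 64.1% is shared on the same strand with the row AC010197.2, which measured 67.5 to 104 RPKM. Their part in these zeros was not tested.

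**Figure D2:**
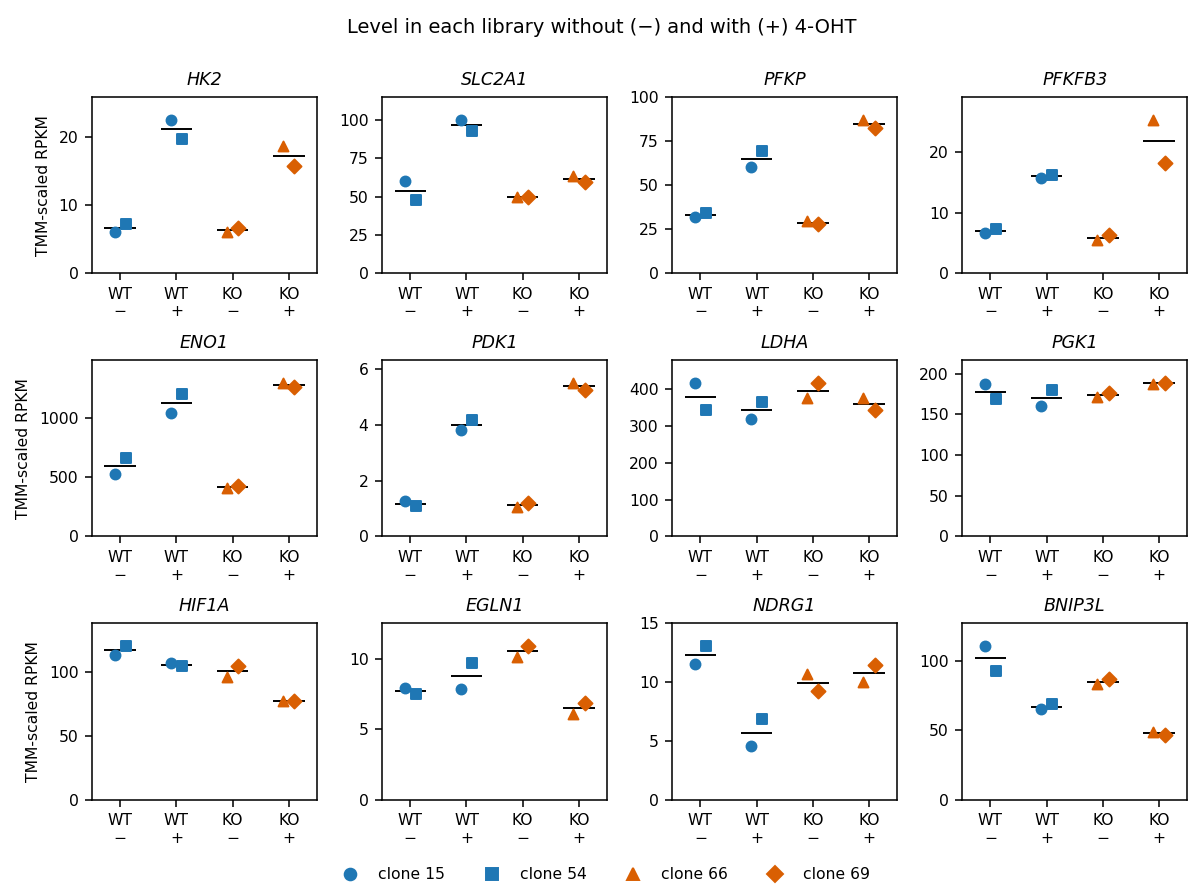
TMM-scaled RPKM (y axis, linear from 0) is plotted per library for 12 members, with WT clones in blue, KO clones in orange, libraries without (−) and with (+) 4-OHT side by side and a black line at each group mean. HK2, PFKP, PFKFB3, ENO1 and PDK1 are higher in all 4 treated libraries than in any untreated one, LDHA overlaps between treatments, and NDRG1 is lowest in the 2 treated WT libraries.

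In lower glycolysis 5 of 6 members were called higher in both genotypes. ENO1, the widely expressed enolase, which makes phosphoenolpyruvate, measured 527 and 667 RPKM in untreated WT clones 15 and 54 and 1049 and 1209 with 4-OHT. KO clones 66 and 69 went from 408 and 425 to 1302 and 1263 RPKM. The KO libraries were below both WT libraries before treatment and above both after it, with ENO1 called in neither comparison. ENO1 rose 1.90-fold in WT (log2 0.93 ± 0.12, adjusted p = 0.000719) and 3.08-fold in KO (log2 1.62 ± 0.12, adjusted p = 4.06e-05). ENO2, the neuron-type enolase, was much scarcer and rose from 1.70 and 2.11 to 4.59 and 7.04 RPKM in WT and from 1.84 and 2.37 to 4.92 and 5.28 in KO (log2 1.54 and 1.25, adjusted p = 0.0012 and 0.00251).

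PGAM1, phosphoglycerate mutase, rose by 0.80 ± 0.09 in WT and 0.89 ± 0.09 in KO on the log2 scale (adjusted p = 0.000366 and 0.000155). Its levels went from 135 to 158 RPKM over the untreated libraries to 248 to 267 over the treated ones. GAPDH and PKM had the highest levels among the members, with the divisor being 1 listed transcript a gene. GAPDH, the NAD-dependent oxidising step, measured 2070 and 2076 RPKM in untreated WT, 2331 and 2520 in treated WT, 1655 and 1656 in untreated KO and 2453 and 2440.0 in treated KO libraries. PKM, pyruvate kinase, measured 1880.0 and 1907, 2237 and 2203, 1536 and 1570.0, and 2084 and 2124 RPKM in the same order. Both rose with 4-OHT, with log2 differences of 0.23 and 0.23 in WT (adjusted p = 0.0297 and 0.0202) and 0.56 and 0.44 in KO (adjusted p = 0.000373 and 0.000869). The difference between the genotypes' responses did not pass for either (adjusted p = 0.0817 and 0.204).

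The WT calls of GAPDH and PKM did not hold in every reanalysis. For GAPDH the adjusted p was 0.143 without treated clone 54 and 0.0555 with the clone as a block. For PKM it was 0.0714 without treated clone 15 and 0.0573 without treated clone 54. With scaling to the library size only, they had adjusted p values of 0.107 and 0.141. The PKM row does not separate the M1 and M2 isoforms. By their names 62 rows are pseudogenes of GAPDH, and they held 2.09% as many reads as GAPDH itself. PGK1, the X-linked phosphoglycerate kinase and a standard HIF target, was called in neither genotype. It measured 187 and 169 RPKM in untreated and 160.3 and 180.4 in treated WT clones, and 171 and 176 against 187 and 189 in KO, with log2 differences of -0.06 ± 0.09 and 0.12 ± 0.09.

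Pyruvate and lactate handling held the gene with the largest estimated rise among the members tested, in WT by little over HK2. PDK1, a kinase that switches off pyruvate dehydrogenase and so holds pyruvate back from the mitochondria, measured 1.26 and 1.11 RPKM in untreated WT clones 15 and 54 and 3.83 and 4.18 with 4-OHT. In KO clones 66 and 69 it went from 1.05 and 1.21 to 5.52 and 5.27 RPKM. The treated KO libraries were above the treated WT libraries, but PDK1 was not called in that comparison. The rise was 3.2-fold in WT (log2 1.68 ± 0.14, adjusted p = 9.28e-05) and 4.48-fold in KO (log2 2.16 ± 0.14, adjusted p = 2.24e-05). SLC16A3 (MCT4), the lactate exporter of glycolytic cells, rose from 207 and 274 to 382 and 454 RPKM in WT and from 164 and 167 to 417 and 356 in KO (log2 0.81 ± 0.15 and 1.22 ± 0.15, adjusted p = 0.00358 and 0.000387). SLC16A1 (MCT1), which carries lactate and pyruvate either way, rose by 0.82 and 1.03 (adjusted p = 0.00768 and 0.00224).

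LDHA, which reduces pyruvate to lactate and is among the best known HIF targets, was called in neither genotype. It measured 416 and 343 RPKM in untreated and 320 and 364 in treated WT clones, and 375 and 417 against 377 and 342 in KO. The treated and untreated libraries overlapped in both, and the log2 differences were -0.15 ± 0.12 and -0.14 ± 0.12 (adjusted p = 0.343 and 0.362).

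The PDK1 promoter is printed for the same reason as that of HK2. PDK1 lies at chr2:172555373-172608669 on the plus strand of GRCh38, and the window is chr2:172555840-172556139 on the plus strand of GRCh38.p14, with capitals as above.
PDK1: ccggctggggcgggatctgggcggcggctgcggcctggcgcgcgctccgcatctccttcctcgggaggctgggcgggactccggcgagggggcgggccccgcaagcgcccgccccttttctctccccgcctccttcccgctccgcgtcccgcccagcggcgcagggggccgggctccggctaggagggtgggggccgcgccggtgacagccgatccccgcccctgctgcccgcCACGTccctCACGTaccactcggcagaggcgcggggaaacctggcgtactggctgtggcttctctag
It holds 2 matches, both to ACGTG on the minus strand and so read here as CACGT. It was printed as the gene's window with most matches, and the other PDK1 window held 0.

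In the pentose phosphate pathway TALDO1, the transaldolase of the non-oxidative branch, was called higher in both genotypes. It measured 172 and 192 RPKM in untreated WT clones and 264 and 268 with 4-OHT, and 161 and 174 against 222 and 203 in KO. The log2 rises were 0.55 ± 0.09 in WT (adjusted p = 0.00149) and 0.35 ± 0.09 in KO (adjusted p = 0.0104), the latter lost without untreated clone 66 (adjusted p = 0.0775) or treated clone 66 (0.0727). PGD, the second NADPH-producing dehydrogenase, went from 41.7 and 39.1 to 52.3 and 61.4 RPKM in KO (log2 0.49 ± 0.09, adjusted p = 0.00286). In WT it had a log2 difference of 0.21 (adjusted p = 0.1). TKT, transketolase, was called in neither (log2 -0.20 in WT and 0.14 in KO, adjusted p = 0.167 and 0.291).

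Among the oxygen sensors, HIF1A, the inducible alpha subunit, did not rise. It measured 114 and 121 RPKM in untreated and 107 and 104 in treated WT clones (log2 -0.15 ± 0.07, adjusted p = 0.128). In KO it fell from 96.5 and 105 to 77.5 in both clones (log2 -0.38 ± 0.07, adjusted p = 0.00324). EGLN1 (PHD2), the main prolyl hydroxylase acting on HIF1A, measured 7.94 and 7.48 RPKM in untreated and 7.84 and 9.73 in treated WT clones. In KO clones 66 and 69 it fell from 10.1 and 10.9 to 6.11 and 6.89 RPKM (log2 -0.69 ± 0.12, adjusted p = 0.00238). EGLN3, a HIF-induced hydroxylase, had 0 to 2 reads a library and was not tested.

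The other hypoxia targets did not move as 1 block. Of the 7 tested, 1 was called higher and 4 lower in WT, and 1 higher and 2 lower in KO. Over all genes tested 25.3% were called higher and 23.6% lower in WT, and 28.8% and 26.9% in KO. BNIP3, a mitophagy receptor, rose from 20.2 and 21.4 to 31.3 and 35.6 RPKM in WT and from 19.7 and 18.7 to 30.7 and 31.4 in KO (log2 0.68 and 0.69, adjusted p = 0.000535 and 0.000357). Its relative BNIP3L (NIX) went the other way, from 111 and 93.0 to 65.7 and 68.8 RPKM in WT and from 83.6 and 87.0 to 48.8 and 46.9 in KO. BNIP3L fell by 0.60 ± 0.09 and 0.83 ± 0.09 on the log2 scale (adjusted p = 0.00163 and 0.000248). Of its listed transcript 37.7% lies opposite PNMA2, which measured 0.202 to 8.94 RPKM and was called lower in WT too (adjusted p = 0.0271), and the counting strand is not given. BNIP3 has 39 pseudogene rows that held 3.23% as many reads.

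KDM3A, a histone demethylase induced by HIF, measured 4.16 and 3.48 RPKM in untreated and 2.64 and 2.86 in treated WT clones, and 3.89 and 3.48 against 2.39 and 2.36 in KO. The treated libraries were all lower, with log2 differences of -0.46 ± 0.13 in WT (adjusted p = 0.0252) and -0.61 ± 0.13 in KO (adjusted p = 0.0062). Its WT call was lost without untreated clone 15 (adjusted p = 0.122), treated clone 15 (0.108) or treated clone 54 (0.053). KDM3A lies at chr2:86440647-86492716 on the plus strand, and its promoter is printed as that of a gene called lower in both genotypes, from chr2:86441121-86441420 on the plus strand of GRCh38.p14.
KDM3A: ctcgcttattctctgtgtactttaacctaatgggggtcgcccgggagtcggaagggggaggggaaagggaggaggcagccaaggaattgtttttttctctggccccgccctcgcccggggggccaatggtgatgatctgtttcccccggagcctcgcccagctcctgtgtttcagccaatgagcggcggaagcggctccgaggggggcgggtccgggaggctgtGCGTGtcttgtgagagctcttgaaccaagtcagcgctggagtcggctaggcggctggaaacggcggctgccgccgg
It holds 1 match, to GCGTG.

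NDRG1, a gene raised by hypoxia and differentiation in many cells, separated the genotypes. It measured 11.5 and 13.1 RPKM in untreated WT clones 15 and 54 and 4.55 and 6.80 with 4-OHT, a log2 difference of -1.12 ± 0.19 (adjusted p = 0.00215). In KO clones 66 and 69 it measured 10.6 and 9.20 RPKM without and 9.97 and 11.5 with 4-OHT, and these libraries overlapped (log2 0.11 ± 0.19, adjusted p = 0.643). P4HA2, a collagen prolyl hydroxylase subunit, was called lower in WT (109 and 122 to 94.4 and 99.4 RPKM, log2 -0.25, adjusted p = 0.0305) and not in KO (log2 -0.05, adjusted p = 0.582). The P4HA2 call was lost without untreated clone 54 (adjusted p = 0.108), treated clone 15 (0.133) or treated clone 54 (0.0583). P4HA1, its sister subunit, and the carbonic anhydrase CA12, which stayed between 0.303 and 0.633 RPKM, were called in neither. CA9, the carbonic anhydrase often used as a hypoxia marker, had 0 to 4 reads a library, and 42.3% of its listed transcript lies opposite ARHGEF39.

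Among the isoenzymes, the shares of HK2, PFKP and PFKL in their sets moved with 4-OHT. In the sets other than hexokinase and phosphofructokinase, treated and untreated libraries overlapped over the clones. HK2 made up 15.6% and 17.1% of the summed hexokinase RPKM (HK1 and HK2) in untreated WT clones 15 and 54 and 32.7% and 29.4% in the treated ones. In KO clones 66 and 69 the share went from 19.9% and 20.9% to 35.8% and 35.0%. Untreated and treated libraries did not overlap. PFKP took 29.5% to 30.8% of the summed phosphofructokinase RPKM without 4-OHT, 42.2% and 43.4% in treated WT and 47.5% and 48.0% in treated KO clones, while PFKL went from 46.5% to 49.4% down to 33.97% to 35.7%. By RPKM these shares thus exchanged places at the top in both genotypes. By reads PFKL stayed above PFKP in treated WT clones 15 and 54, at 4189 against 3993 and 4057 against 4011. In treated KO clones 66 and 69 PFKP was above PFKL by reads too, at 5059 against 4913 and 5121 against 4846. The RPKM share of PFKM overlapped over the clones. It went from 22.7% and 19.8% to 23.6% and 22.7% in WT clones 15 and 54. In KO clones 66 and 69 it went from 21.4% and 22.85% to 16.8% and 16.7%. SLC2A3 made up 17.8% to 22.2% of the 2 glucose transporters without 4-OHT, 17.6% and 21.3% in treated WT and 26.4% and 27.9% in treated KO clones. SLC16A3 made up 93.4% to 95.1% of SLC16A1 and SLC16A3 together without and 94.1% to 95.1% with 4-OHT. PFKFB4 (24.9% to 30.8% of both PFKFB enzymes without, 19.98% to 27.7% with) and P4HA1 (24.5% to 30.8% of both subunits without, 26.5% to 31.2% with) overlapped over the 8 libraries as well, though not over the WT clones alone. The P4HA1 share did not overlap over the KO clones alone either. It was higher with 4-OHT in WT and lower with it in KO (29.9% and 30.8% to 29.6% and 26.5% in clones 66 and 69). The share of ENO2 in the enolases went from 0.321% and 0.316% to 0.435% and 0.579% in WT, but from 0.448% and 0.555% to 0.376% and 0.416% in KO. All shares are given as a description and were not tested. RPKM divides by 1 listed transcript a gene, so the size of a share depends on the listed lengths. P4HA1 is listed at 2844 bases and P4HA2 at 724. By reads P4HA1 was above P4HA2 in each library, with 2994 against 1880 in untreated WT clone 15. SLC16A3 is listed at 955 bases and SLC16A1 at 3910.

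**Figure D3:**
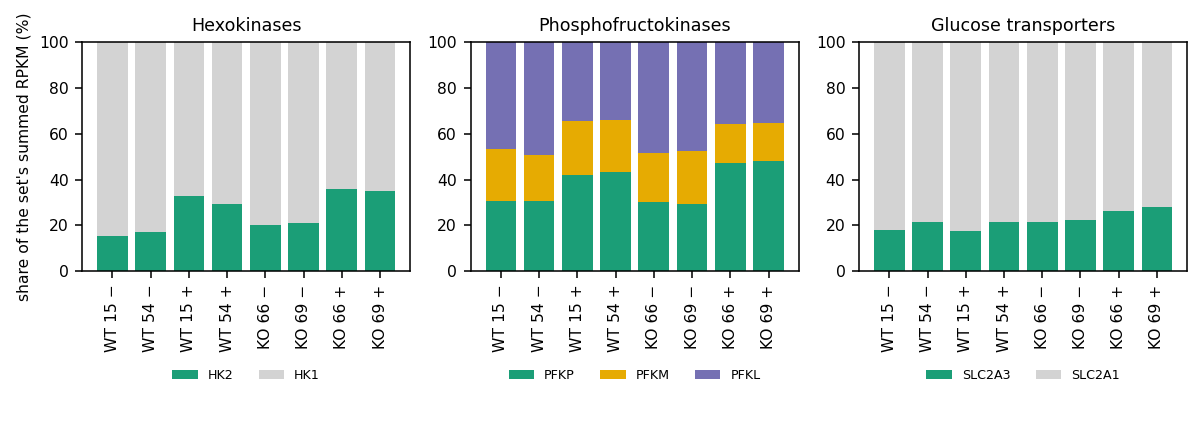
Stacked bars show, for each of the 8 libraries (x axis, clone with − or + for 4-OHT), the share of each isoenzyme in the summed RPKM of its set in percent (y axis, 0 to 100). HK2 covers 15.6% to 20.9% of the hexokinase bars without and 29.4% to 35.8% with 4-OHT, and PFKP widens from 29.5% to 30.8% to 42.2% to 48.0% of the phosphofructokinase bars.

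Before treatment, KO clones had less RNA than WT clones for 3 of the 34 members tested, and no member was called higher. The 3 members called lower were HK1, GAPDH and PKM, beside 6.34% of all genes called, 2.59% higher and 3.75% lower in KO. HK1 measured 24.3 and 24.9 RPKM in KO against 32.6 and 35.2 in WT (log2 -0.46 ± 0.09, adjusted p = 0.028). GAPDH and PKM, with the values given above, had log2 differences of -0.32 ± 0.07 (adjusted p = 0.0394) and -0.29 ± 0.06 (adjusted p = 0.0447). ENO1 and TPI1 also had lower values in both KO clones without passing (log2 -0.51 and -0.40, adjusted p = 0.0541 and 0.0551). The median over the 34 members was -0.12, beside -0.01 over all genes.

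These 3 calls were close to the threshold. All 3 were lost without WT clone 54 (adjusted p = 0.0934, 0.0713 and 0.0757 for HK1, GAPDH and PKM), without KO clone 66 (0.154, 0.195 and 0.229) and without KO clone 69 (0.158, 0.228 and 0.228). Without WT clone 15, 7 members were called lower.

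With 4-OHT, KO and WT clones differed in 7 of the 34 members tested, 2 higher and 5 lower in KO, beside 14.4% of all genes, 6.72% higher and 7.67% lower. PFKP (log2 0.39 ± 0.09, adjusted p = 0.0284) and NDRG1 (0.93 ± 0.19, adjusted p = 0.021) were higher in KO. SLC2A1 was lower, at 63.9 and 59.5 against 100.2 and 92.9 RPKM (log2 -0.65 ± 0.11, adjusted p = 0.013). HK1 was lower as it was before treatment, at 33.5 and 29.2 against 46.3 and 47.3 RPKM (log2 -0.58 ± 0.09, adjusted p = 0.00918). HIF1A (log2 -0.45 ± 0.07, adjusted p = 0.0109), BNIP3L (-0.49 ± 0.09, adjusted p = 0.0177) and TALDO1 (-0.32 ± 0.09, adjusted p = 0.0459) were lower too. GAPDH, called lower before treatment, stood at 2453 and 2440.0 against 2331 and 2520 RPKM here.

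None of these 7 calls held in every reanalysis with 1 library left out. Without treated WT clone 15 or treated KO clone 69 no member was called, with adjusted p values between 0.0564 (HK1) and 0.156 (TALDO1) in the first case and between 0.0716 (HK1) and 0.262 (TALDO1) in the second. Without treated KO clone 66 only SLC2A1 and HK1 stayed called, with adjusted p values of 0.124 for PFKP, 0.065 for NDRG1, 0.0555 for HIF1A, 0.0686 for BNIP3L and 0.0891 for TALDO1. Without treated WT clone 54, BNIP3L (0.0769) and TALDO1 (0.154) were lost.

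**Figure D4:**
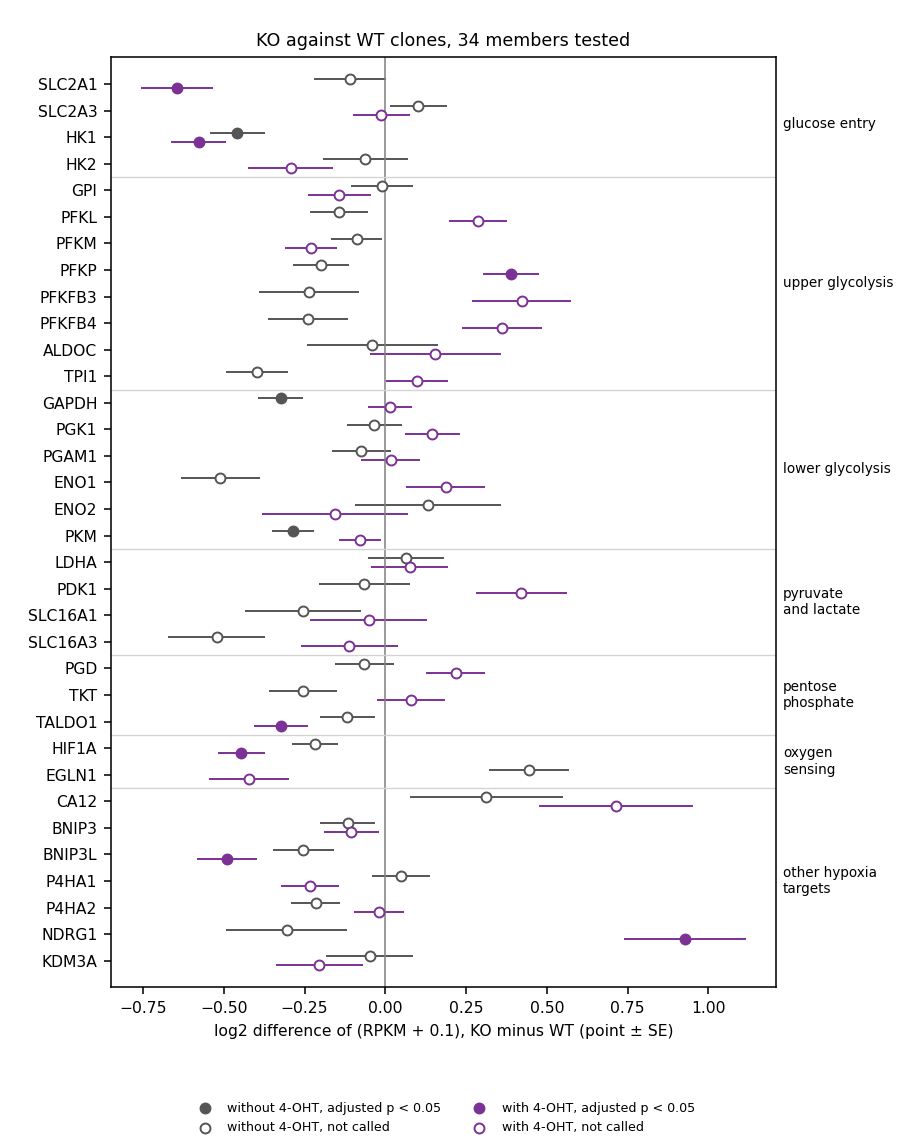
The log2 difference of RPKM + 0.1 between KO and WT clones (x axis) is plotted for the 34 members tested, without 4-OHT (grey) and with it (purple), as limma estimates with bars of 1 SE, filled where the adjusted p was under 0.05. HK1 lies left of 0 in both conditions, and PFKP, PFKFB3, PFKFB4, PDK1, ENO1 and NDRG1 lie left of 0 without and right of it with 4-OHT.

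The 4-OHT response itself differed between the genotypes for 3 of the 34 members tested, beside 7.45% of all genes, 4.37% with the KO response above and 3.08% below that of WT. PFKP rose further in KO, by 0.59 ± 0.12 on the log2 scale (adjusted p = 0.0333). NDRG1 fell in WT and not in KO, a difference of 1.24 ± 0.27 (adjusted p = 0.0365). EGLN1 fell in KO and stood at 0.18 in WT, a difference of -0.87 ± 0.18 (adjusted p = 0.0299). When the clone was fitted as a block, which compares each clone with itself, 6 members were called: these 3 with adjusted p = 0.0282, 0.0255 and 0.039, ENO1 (0.70, adjusted p = 0.0242) and TPI1 (0.50, adjusted p = 0.0429), which rose further in KO, and SLC2A1 (-0.54, adjusted p = 0.0498), which rose less there. Without the block ENO1, TPI1 and SLC2A1 had adjusted p values of 0.0557, 0.0718 and 0.0841. Of the members called in 1 genotype only, GPI (difference of responses -0.13, adjusted p = 0.593), PFKL (0.43, 0.0877), PGD (0.28, 0.224), HIF1A (-0.23, 0.216) and P4HA2 (0.20, 0.311) did not pass this test.

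These calls too were lost in fits with 1 library left out. Such a fit leaves 1 clone in a group, so a lost call does not show that the library left out decided it. Each of the 3 was lost without untreated WT clone 54, untreated KO clone 66, untreated KO clone 69, treated KO clone 66 or treated KO clone 69. PFKP and NDRG1 were also lost without treated WT clone 15, and EGLN1 without treated WT clone 54. The direction held throughout, with ranges of 0.49 to 0.69 for PFKP, 0.95 to 1.52 for NDRG1 and -1.02 to -0.71 for EGLN1.

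Genes of the same pathways outside the 38 were called in both directions, as were all genes tested, of which 25.3% were higher and 23.6% lower in WT and 28.8% and 26.9% in KO. Of 21 other glycolysis genes tested 3 were called higher and 5 lower in WT, and 6 and 8 in KO, with medians of -0.09 and -0.17. The lysosomal transporter SLC2A6 rose (log2 1.38 and 1.37, adjusted p = 0.000489 and 0.00038), and the glucose transporters SLC2A10 and SLC2A12 fell (SLC2A12 from a mean of 3.39 to 0.218 RPKM in WT and from 2.39 to 0.185 in KO, adjusted p = 3.88e-05 and 3.77e-05). Of 9 other pentose phosphate genes tested 2 were higher and 3 lower in WT, and 5 and 3 in KO. PRPS1, which makes the ribose donor of nucleotide synthesis, rose (log2 0.77 and 0.53, adjusted p = 0.000307 and 0.00131), and H6PD, the NADPH source of the endoplasmic reticulum, fell (-0.78 and -0.41, adjusted p = 0.000238 and 0.00381).

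At the entry of pyruvate to the mitochondria 8 of 18 genes tested were called higher and 5 lower in each genotype. PDK3, a second kinase of pyruvate dehydrogenase, rose from a mean of 0.256 to 2.16 RPKM in WT and from 0.921 to 5.22 in KO (log2 2.69 and 2.38, adjusted p = 7.66e-05 and 8.87e-05). MPC2, a subunit of the mitochondrial pyruvate carrier, rose from 17.8 to 49.7 and from 22.5 to 43.7 RPKM (adjusted p = 3.77e-05 and 0.000167). SLC16A7 (MCT2), a monocarboxylate carrier that favours uptake, fell by 1.81 and 1.25 on the log2 scale (adjusted p = 1.87e-05 and 5.5e-05), opposite in sign to SLC16A1 and SLC16A3.

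In the HIF pathway 4 of 14 genes tested were called higher and 5 lower in WT, and 5 and 6 in KO. EPAS1 (HIF-2 alpha) fell from a mean of 57.2 to 26.7 RPKM in WT and from 59.7 to 15.0 in KO (log2 -1.10 and -1.99, adjusted p = 8.97e-05 and 6.94e-06). CITED2, which competes with HIF for its coactivator, fell from 462 to 54.6 and from 707 to 43.0 RPKM (log2 -3.08 and -4.04, adjusted p = 4.86e-06 and 1.49e-06). Without 4-OHT, CITED2 was called higher in KO than in WT (log2 0.62, adjusted p = 0.0315). With 4-OHT it was not called between them (-0.34, adjusted p = 0.109). EPAS1 was called lower in KO with 4-OHT (-0.83, adjusted p = 0.00468) and not called without it. The fall was larger in KO for both, with differences of responses of -0.89 (adjusted p = 0.0101) and -0.96 (adjusted p = 0.0206). For EPAS1 that call was lost without untreated KO clone 66 (adjusted p = 0.0541) or treated KO clone 69 (0.0525). For CITED2 it was lost without treated WT clone 15 (0.0628) or any of the KO libraries (0.072 to 0.0866).

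Of 36 further hypoxia targets tested 17 were called higher and 7 lower in WT, and 17 and 11 in KO, with medians of 0.16 and 0.19. VEGFA, the angiogenic factor, rose from a mean of 1.91 to 5.84 RPKM in WT and from 1.82 to 6.63 in KO (adjusted p = 0.000263 and 9.54e-05). ANGPTL4, a secreted inhibitor of lipoprotein lipase, rose from 0.184 to 3.70 and from 0.241 to 3.24 RPKM (adjusted p = 5.78e-05 and 6.81e-05). STC2, a secreted glycoprotein, rose in WT by 1.56 (adjusted p = 4.3e-05), and its KO response was lower by a difference of -1.38 (adjusted p = 0.00546). PLOD2, a collagen lysyl hydroxylase, went from a mean of 75.04 to 90.02 RPKM in WT and from 86.2 to 49.2 in KO, with a difference of responses of -1.07 (adjusted p = 0.00619). Both kept this call in each reanalysis run, with adjusted p values up to 0.0387 and 0.0417.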

How the data were processed

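Per the labels' protocols, total RNA was isolated with a column kit, treated with DNase and sequenced from a stranded library kit. STAR, featureCounts and edgeR with the GRCh38 build are named in the submitters' processing notes, but their versions, roles and strand setting the sources used here do not give. A single table of RPKM values was deposited by the authors, 58870 rows by 8 libraries. Per the file headers a bare clone number or one with a minus sign names a column; the minus was read as without 4-OHT, which no label spells out. Multiplied by the listed transcript's length (GENCODE release 29, or inferred from the value steps for 6410 genes) and 1 library total, 100% of the values above 0 became whole reads within 0.1 read. These reads served for the filter, the TMM factors (0.9402 to 1.035) and the median-of-ratios scaling and voom alternatives. All read numbers and percentages of reads given here for genes also come from them. The 45 duplicate pseudoautosomal rows were left out. Which exons were counted per gene is not given in the sources used here.

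Genes with a CPM of 0.422 (10 reads in a library of median size) in 2 libraries and 15 reads in all were tested (16527). limma 3.58.1 in R 4.3.3, with trend and robust moderation, fitted 4 group means to log2(scaled RPKM + 0.1) over 8 libraries, with 4 residual degrees of freedom. All p-values are two-sided, Benjamini-Hochberg adjusted over all genes tested, at a threshold of 0.05. The script was tested on simulated data. The log2(value + 0.1) scale understates changes of low genes. Clones of a group correlated at 0.9836 to 0.9921 over genes. The same clones were sampled without and with 4-OHT, so clone numbers pair the libraries by the labels; the deviations of paired libraries correlated at 0.309 in WT and 0.004 in KO. p-values measure the spread between clones.

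The 38 genes and the lists of further genes were chosen with earlier results of these data known. Members called were described in full, at most the 12 largest in a direction, and up to 4 genes of each further list were eligible to be named by their p. Alternatives were other scalings, pseudocounts, no filter, the clone block, voom on the recovered reads, only the libraries compared, and leaving out each library. Coordinates are those of GENCODE release 29 on GRCh38, and promoter windows are RefSeq's on GRCh38.p14.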

Additional observations from a re-analysis of the deposited data

Results flagged for a closer look

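For 3 of the 34 members tested the test of the difference between the KO and WT responses to 4-OHT passed, adjusted over all genes tested, of which 7.45% passed (limma, KO minus WT on the log2 scale). None of the 3 calls held under every alternative. PFKP had a difference of 0.59, with rises in all 4 clones. NDRG1 had a difference of 1.24, with a fall in both WT clones and KO levels that overlapped between treatments. EGLN1 had a difference of -0.87, with a fall in both KO clones and WT levels that overlapped. The libraries without which each call was lost are given with the results above, and the cause of these differences was not tested.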

How the results depend on the processing

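Of the member calls, 19 of 24 in the WT response and 22 of 25 in the KO response held under each alternative run, and 0 of 3, 0 of 7 and 0 of 3 in KO against WT without 4-OHT, the same with 4-OHT, and the difference of responses. With no filter or with only the libraries compared, 2 members instead of 4 were called lower in WT (2 to 4 with a library left out). For KO against WT without 4-OHT, voom on the recovered reads called 7 members (1 higher, 6 lower) and 1761 genes, only the libraries compared 0 members and 303 genes, no filter 245 genes, and leaving out a library 0 to 7 members, all lower, and 5 to 1849 genes. With 4-OHT, no filter called 3 members (0 higher, 3 lower) and 994 genes, voom 12 (6 higher), and leaving out a library 0 to 5 members (0 to 2 higher, 0 to 3 lower) and 168 to 1360 genes. For the difference of responses, no filter called 0 members (0 higher, 0 lower) and 437 genes, the replicate block by clone 6 members (4 higher, 2 lower), voom 8 (6 higher, 2 lower), and leaving out a library 0 to 7 (0 to 5 higher, 0 to 2 lower) and 282 to 2120 genes. Where an alternative leaves 1 clone in a group, that clone is assumed to vary like the other groups. A call lost there does not show that the library left out decided it. Among members not called, a sign turned for PFKL (-0.076) and P4HA1 (-0.010) in WT with library size only, and with a library left out for PGK1 (-0.154 to 0.021), PFKL (-0.079 to 0.087), CA12 (-0.242 to 0.096) and P4HA1 (-0.012 to 0.151) in WT, SLC2A1 (-0.271 to 0.054) in KO against WT without 4-OHT and GAPDH (-0.043 to 0.084) with it. Signs were followed for all members not called in the WT and KO responses. In KO against WT without 4-OHT they were followed for only 5 of 31. With 4-OHT they were followed for 2 of 27, and for the difference of responses for 11 of 31. Other signs may therefore have turned. The cause of these shifts was not tested. The block changed no other member's call than those named above. No alternative gave a block value for KO against WT, since clones differ between genotypes, or a fit of only the libraries compared for the difference of responses. The edgeR count test was not run because the deposited unit is RPKM. Genes at few reads (EGLN3, CA9, CA12) are limited by depth, since 3 reads of EGLN3 equal 0.21 to 0.237 RPKM.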
